A study of Homo sapiens with 72 samples.

Results

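The genes HDAC1 to HDAC10 encode 10 of the zinc-dependent histone deacetylases and are 10 of the 20033 protein-coding genes of GENCODE 44 on hg38. They were chosen by name, and each was described by the Cut&Tag peaks that lay within 1 kb of an annotated transcription start or over the gene body with 3 kb on either side. Peak signals of these same libraries under bryostatin were known when the genes were chosen. HDAC9 stands in the study's own list of peaks changed by bryostatin in REH, for both H3K4me2 and H3K4me3, so its values in that comparison are a description and carry no test.

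Histone deacetylases remove acetyl groups from lysines, and their recruitment to chromatin is generally linked to transcriptional repression. The class I enzymes HDAC1, HDAC2 and HDAC3 are the catalytic subunits of nuclear corepressor complexes, while HDAC8 acts outside them. The class IIa proteins HDAC4, HDAC5, HDAC7 and HDAC9 have weak catalytic activity, bind MEF2 transcription factors and move between nucleus and cytoplasm, and their phosphorylation by protein kinase D downstream of protein kinase C is a known trigger of nuclear export. In class IIb, HDAC6 is a cytoplasmic tubulin deacetylase and HDAC10 a polyamine deacetylase. H3K4me3 marks active and poised promoters, H3K4me2 marks promoters and enhancers, and H3K27me3 marks chromatin repressed by Polycomb.

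Raji, a Burkitt lymphoma line that carries Epstein-Barr virus, and the precursor B cell leukemia lines NALM6 and REH were profiled untreated or after overnight exposure to 1 nM bryostatin, an activator of protein kinase C. Each line, treatment and mark had 3 libraries, which makes 54 in all. Each line descends from 1 patient's tumour, so a difference between lines is a difference between 3 individual lines and not between diseases. No source used here states that the replicates were separate cultures, and the p-values measure the spread between these libraries, which may be technical.

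SEACR peaks were called by the authors in each library from RPKM coverage, and the values here are the total signal of a peak, which grows with the length called. Relative signal is that total divided by the library's median over the regions called in every library compared, so 1 stands for a typical region and a value compares libraries of 1 mark. Levels at canonical starts have another scale. There the median was taken over the genes with a canonical start peak in all 18 libraries of the mark (3136 for H3K4me2, 4103 for H3K4me3). Values on the 2 scales cannot be compared with each other. Mapped reads could be read from the RPKM steps in 48 libraries and ranged from 5.12 M to 47.9 M. The 6 libraries of NALM6 replicate 1 carry another scaling and shorter peaks, and their depth is unknown. The number of peaks ranged from 7130 to 22540 for H3K4me2 and from 4389 to 12798 for H3K4me3, and over all marks from 590 to 101702. The lines carried H3K4me3 in at least 4 of 6 libraries at 6 (Raji), 4 (NALM6) and 4 (REH) of 6 B lineage markers, and at 1, 5 and 4 of 5 precursor B markers in the same order. At 3 T cell and 3 myeloid markers no library of any line had such a peak.

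The genes lie apart from each other, and they differ greatly in length. The class I loci are chr1:32292083-32333635 for HDAC1 on the plus strand, and on the minus strand chr6:113933028-114011308 for HDAC2, chr5:141620876-141636849 for HDAC3 and chrX:72329516-72573101 for HDAC8. The class IIa loci are chr2:239048168-239401654 for HDAC4, chr17:44076746-44123702 for HDAC5 and chr12:47782722-47833132 for HDAC7 on the minus strand, and chr7:18086949-19002416 for HDAC9 on the plus strand. HDAC9 spans 915468 bp and HDAC10 only 6223 bp. HDAC6 lies at chrX:48801377-48824982 on the plus strand and HDAC10 at chr22:50245183-50251405 on the minus strand.

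Promoters of 300 bases, from 250 before to 50 after the RefSeq start (GRCh38.p14), were at hand for 9 of the 10 genes. HDAC4 and HDAC10 held 40 CpG each, HDAC7 33, HDAC3 31, HDAC1 28, HDAC6 27 and HDAC2 24. HDAC8 held 9 and HDAC9 5, below the median of 14 over 35116 promoters. HDAC9 and HDAC8 were also lowest in GC, with 47.3% and 49.3% against a median of 58.7%, and these 2 genes lacked an H3K4me3 peak in most of the 12 NALM6 and REH libraries. The CpG-rich promoter of HDAC7, the member with the highest H3K4 signal, is shown with the CpG-poor promoters of HDAC8 and HDAC9. The 3 sequences run 5′ to 3′ on the gene's strand, at chr12:47819854-47820153 on the minus strand for HDAC7, chrX:72572794-72573093 on the minus strand for HDAC8 and chr7:18495499-18495798 on the plus strand for HDAC9. Capitals mark each CpG and, in HDAC9, the AP-1 motif.
HDAC7: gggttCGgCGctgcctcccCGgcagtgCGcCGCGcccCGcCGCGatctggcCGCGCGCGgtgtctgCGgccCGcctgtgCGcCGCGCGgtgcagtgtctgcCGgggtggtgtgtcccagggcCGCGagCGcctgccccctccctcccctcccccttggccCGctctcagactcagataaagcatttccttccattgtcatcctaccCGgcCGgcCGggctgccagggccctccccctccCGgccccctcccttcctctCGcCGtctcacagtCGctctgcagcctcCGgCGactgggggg
HDAC8: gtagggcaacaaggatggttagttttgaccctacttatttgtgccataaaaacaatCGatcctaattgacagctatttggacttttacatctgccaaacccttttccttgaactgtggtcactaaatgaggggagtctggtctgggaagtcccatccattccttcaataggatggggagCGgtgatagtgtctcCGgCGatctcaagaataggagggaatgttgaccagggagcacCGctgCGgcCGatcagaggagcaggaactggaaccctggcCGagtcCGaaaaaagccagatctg
HDAC9: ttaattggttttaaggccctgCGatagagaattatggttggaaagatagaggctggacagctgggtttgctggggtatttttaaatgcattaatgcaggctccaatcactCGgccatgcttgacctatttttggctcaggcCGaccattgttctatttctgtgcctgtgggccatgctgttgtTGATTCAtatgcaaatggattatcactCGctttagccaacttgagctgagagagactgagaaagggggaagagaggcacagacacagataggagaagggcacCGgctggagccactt
On both strands the letters TGANTCA of the AP-1 motif matched in HDAC9 alone, 67 bp before the start, and in 7.71% of all promoters. The GC box GGGCGG matched 6 times in HDAC1, 4 in HDAC10, 3 in HDAC3, 2 in HDAC6 and 1 in HDAC4, and in 45.0% of all promoters. The ETS letters CCGGAAG matched in HDAC10 (10.3% of all), the EBF letters TCCCNNGGGA in HDAC1 (1.21%) and the MEF2 letters CTANNNNTAG in none of the 9 (2.73%). A match of letters is a description and not a bound site.

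In Raji and REH most of the deacetylase genes carried H3K4 methylation at a start in all 6 libraries of the line, and in NALM6 at most 5 of 10 did for either mark. For H3K4me2 this held for 8 of 10 genes for Raji, 5 for NALM6 and 8 for REH, where 44.2%, 20.6% and 48.9% of all protein-coding genes did so. For H3K4me3 it held for 9, 4 and 7 of 10 genes, beside 49.4%, 23.2% and 41.1% of all genes. HDAC3, HDAC7 and HDAC10 had a start peak in all 18 libraries of each of these marks. Windows of 500 bp and 2 kb gave the same shares of library and gene pairs with a peak as 1 kb. The member peaks nearest to the 1 kb limit were an H3K4me3 peak 998 bp from an HDAC10 start in REH, just inside, and an H3K4me2 peak 1029 bp from an HDAC7 start in Raji, just outside.

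**Figure D1:**
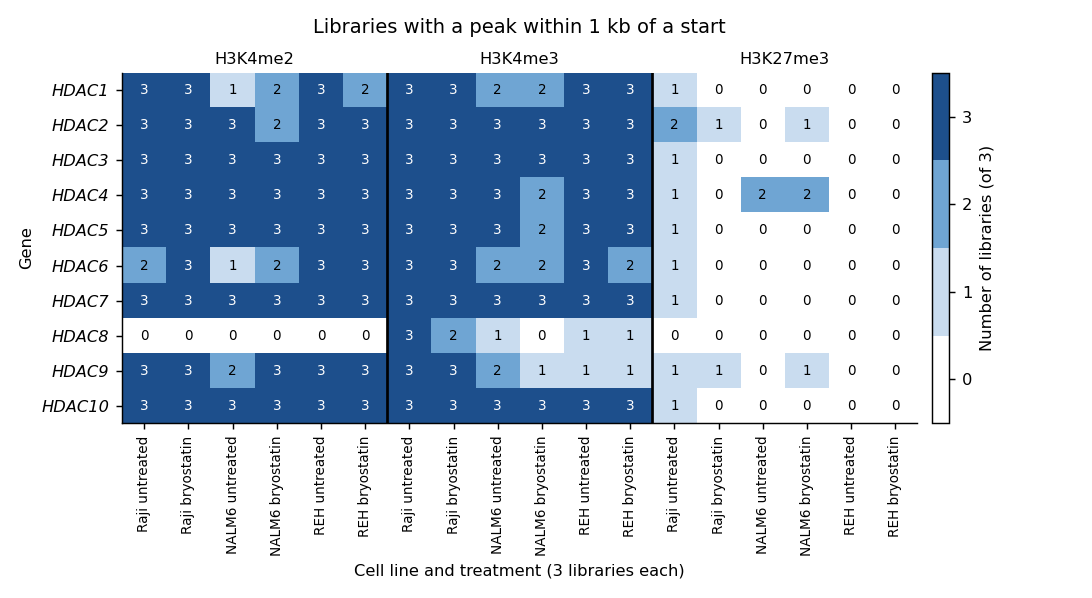
Number of libraries, of 3 per line and treatment, with a peak within 1 kb of a start of each gene (rows), by line, treatment and mark (columns); darker cells hold more libraries. H3K4 peaks stood at most members, HDAC8 had no H3K4me2 peak in any library, and REH had no H3K27me3 peak at any member.

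HDAC8 was the only member without H3K4me2 at a start. No H3K4me2 peak lay at its starts in any of the 18 libraries. H3K4me3 was called there in 3 untreated and 2 treated Raji libraries, in 1 untreated NALM6 library and in 1 library of each REH group. Its H3K4me3 in untreated Raji was low, with a relative signal on the canonical start scale of 0.0659, 0.135 and 0.0921 (mean 0.0978 ± 0.0351, SD, n = 3), above only 7.73% of the genes with signal. A weak peak near the calling limit can be missed at low depth, so its absence from a library was not read as absence of the mark.

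HDAC9, the class IIa gene with the longest locus, had H3K4me3 at its main start in more libraries of Raji than of NALM6 or REH. All 6 Raji libraries had such a peak, but 2 untreated and 1 treated library did in NALM6 and 1 of each group in REH. H3K4me2 at that start was called in 6 Raji and 6 REH libraries, and in 2 untreated and 3 treated libraries of NALM6. In REH, then, the HDAC9 start had H3K4me2 in all 6 libraries and H3K4me3 in 2. On the canonical start scale the relative H3K4me3 signal at the HDAC9 start in untreated Raji was 0.199, 0.314 and 0.200, and the single untreated REH library with a peak had 0.0479.

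HDAC1 and HDAC6 lacked peaks mainly in NALM6. HDAC1 had H3K4me2 in 1 untreated and 2 treated NALM6 libraries, and HDAC6 likewise in 1 and 2. Both had H3K4me3 in 2 libraries of each NALM6 group. Without NALM6 replicate 1 the share of gene and library pairs with a peak, over all 3 lines, was 87.5% for H3K4me2 and 88.8% for H3K4me3, against 84.4% and 86.7% with it.

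H3K27me3 start peaks were called in 10.0% of the member gene and library pairs, beside 15.4% over all protein-coding genes, and in 0.556% when each library was held to an equal number of peaks. In REH, where 9.27% of all genes had an H3K27me3 start peak in all 6 libraries, no member had one in any library. No member had one over its gene body either, while 5423 of the 20033 protein-coding genes had one there in any library. In Raji 0 members and 1.24% of all genes had one in all 6 libraries, and in NALM6 0 members and 0.669%. With 10 members, counts of 0 beside these shares are not read as a result about the deacetylases. The Raji calls came mostly from untreated replicate 2, which had a peak at 8 of the 10 members, but also at 57.0% of all protein-coding genes. Without that library, a choice made after seeing the data, the share of gene and library pairs with an H3K27me3 start peak was 5.88%, beside 13.0% over all genes.

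In NALM6 HDAC2 and HDAC9 had an H3K27me3 start peak in 1 treated library each, and HDAC4 had one in the most libraries. Its H3K27me3 peaks lay at internal starts in 2 libraries of each group and covered 502, 61280 and 57620 bp of the gene in the untreated libraries, and 0, 88160 and 54570 bp after bryostatin. The library with 502 bp and the one with none are those of replicate 1 with its other scaling, and the groups overlapped. The canonical start of HDAC4 had an H3K4me2 peak in all 6 NALM6 libraries of that mark and an H3K4me3 peak in 5 of 6. It also had an H3K27me3 peak in 1 treated NALM6 library.

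At the canonical starts HDAC7 had the most H3K4 methylation. HDAC7, a class IIa protein known in B cell progenitors for repressing genes of other lineages, had the highest mean H3K4me2 in every line. Its relative signal in the untreated libraries was 3.07, 3.71 and 7.44 for Raji, 1.69, 5.64 and 3.26 for NALM6 and 7.19, 7.90 and 3.94 for REH, with means above at least 99% of the genes with signal. Even the lowest of these 9 libraries lay above 1, the median on the canonical start scale. At the canonical start the H3K4me2 replicates of HDAC7 spread widely within each line. In NALM6 they overlapped those of HDAC10 (3.01, 1.98 and 2.17). Summed over the gene body, on the other scale, HDAC7 H3K4me2 was closer between untreated replicates of Raji (11.11, 12.46 and 12.43) and REH (10.08, 11.31 and 11.49). In NALM6 this sum still spread widely (3.3, 5.62 and 6.76). HDAC7 also had the highest H3K4me3 mean, with 1.89 ± 0.395 for Raji, 2.17 ± 0.818 for NALM6 and 2.07 ± 0.0772 for REH (SD, n = 3 each).

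For H3K4me2 HDAC3, HDAC4 and HDAC10 followed. HDAC10 had 1.09 ± 0.144 for Raji, 2.39 ± 0.546 for NALM6 and 2.28 ± 0.294 for REH, and HDAC3 had 1.52 ± 0.153, 1.11 ± 0.594 and 1.47 ± 0.0548 (SD, n = 3 each). HDAC4 had 1.11 ± 0.298, 1.36 ± 0.693 and 1.13 ± 0.0277. In Raji HDAC10 and HDAC4 did not differ beyond their spread, nor did HDAC3 and HDAC4 in NALM6, while in REH HDAC10, HDAC3 and HDAC4 lay apart in that order. HDAC1, HDAC2, HDAC5, HDAC6 and HDAC9 lay below 1 in all lines, from 0.104 for HDAC1 in NALM6 to 0.762 for HDAC2 in Raji. A library without a peak counts as 0 in the means on this scale, and HDAC1 in NALM6 had 0, 0 and 0.312.

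For H3K4me3 the class I genes HDAC3 and HDAC2 came next below HDAC7 in Raji and REH, while in NALM6 HDAC4 lay between HDAC2 and HDAC3. HDAC3 had 1.23 ± 0.0448 for Raji, 0.868 ± 0.0650 for NALM6 and 1.01 ± 0.0494 for REH, and HDAC2 had 1.11 ± 0.141, 1.21 ± 0.0883 and 1.02 ± 0.00715 (SD, n = 3 each). In Raji and REH the 2 genes did not differ beyond their spread, and in NALM6 HDAC2 was the higher. HDAC4 had 0.834 ± 0.0514, 0.909 ± 0.485 and 0.986 ± 0.0766, and in NALM6 and REH it did not differ from HDAC3 beyond their spread. HDAC5, HDAC6, HDAC8 and HDAC9 lay at 0.459 or below in every line. Several start regions are shared, HDAC3 with RELL2, HDAC2 with HDAC2-AS2 and HDAC4 with HDAC4-AS1, and the marks have no strand, so the signal cannot be divided between neighbours.

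**Figure D2:**
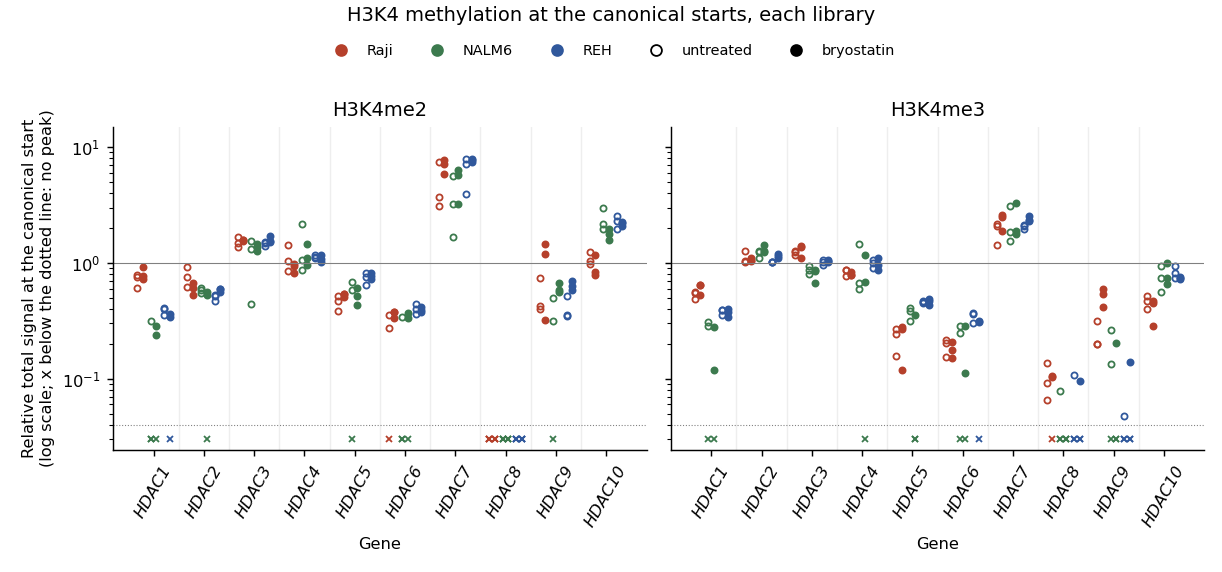
Relative total signal at the canonical start of each gene (x axis) on a log scale (y axis). A value of 1 is the median over genes with such a peak in all 18 libraries of the mark. There is 1 point per library, open for untreated and filled for bryostatin, with crosses below the dotted line for libraries without a peak. HDAC7 has the highest untreated mean of each line for both marks, and HDAC8 has no H3K4me2 peak in any library.

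Several genes carried H3K4 methylation at more than 1 start. H3K4 peaks in at least 1 library lay at 4 of 11 groups of starts of HDAC7, 4 of 9 of HDAC9, 3 of 7 of HDAC5, 2 of 4 of HDAC1 and of HDAC3, 2 of 5 of HDAC2, 2 of 2 of HDAC10, 1 of 13 of HDAC4, 1 of 5 of HDAC6 and 1 of 6 of HDAC8. At the most upstream start of HDAC7, at 47833132 on chromosome 12, H3K4me2 was called in all 6 Raji libraries and in none of the 12 NALM6 and REH libraries. A region called there in the untreated Raji libraries had a relative signal of 1.48, 1.21 and 2.11 in the comparison with REH. That region, chr12:47831361-47837020, also holds a start of the noncoding RNA gene LINC02354, and no H3K4me3 peak lay at this HDAC7 start in any library.

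HDAC5 had a second marked start inside the gene. It lies 12300 bp downstream of the canonical start, at 44111341 on chromosome 17, and 1 protein-coding transcript begins there. H3K4me2 was called at it in all 18 libraries. H3K4me3 was called at it in 0 of 6 Raji libraries, in 2 libraries of each NALM6 group and in all 6 REH libraries. A further H3K4me2 region from 44094451 was called in all 6 REH libraries and in none of the 3 untreated Raji libraries, with a mean relative signal of 0.991 ± 0.127 (SD, n = 3) in untreated REH. Every NALM6 library but untreated replicate 1 also had an H3K4me2 peak there, and no treated Raji library had one.

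**Figure D3:**
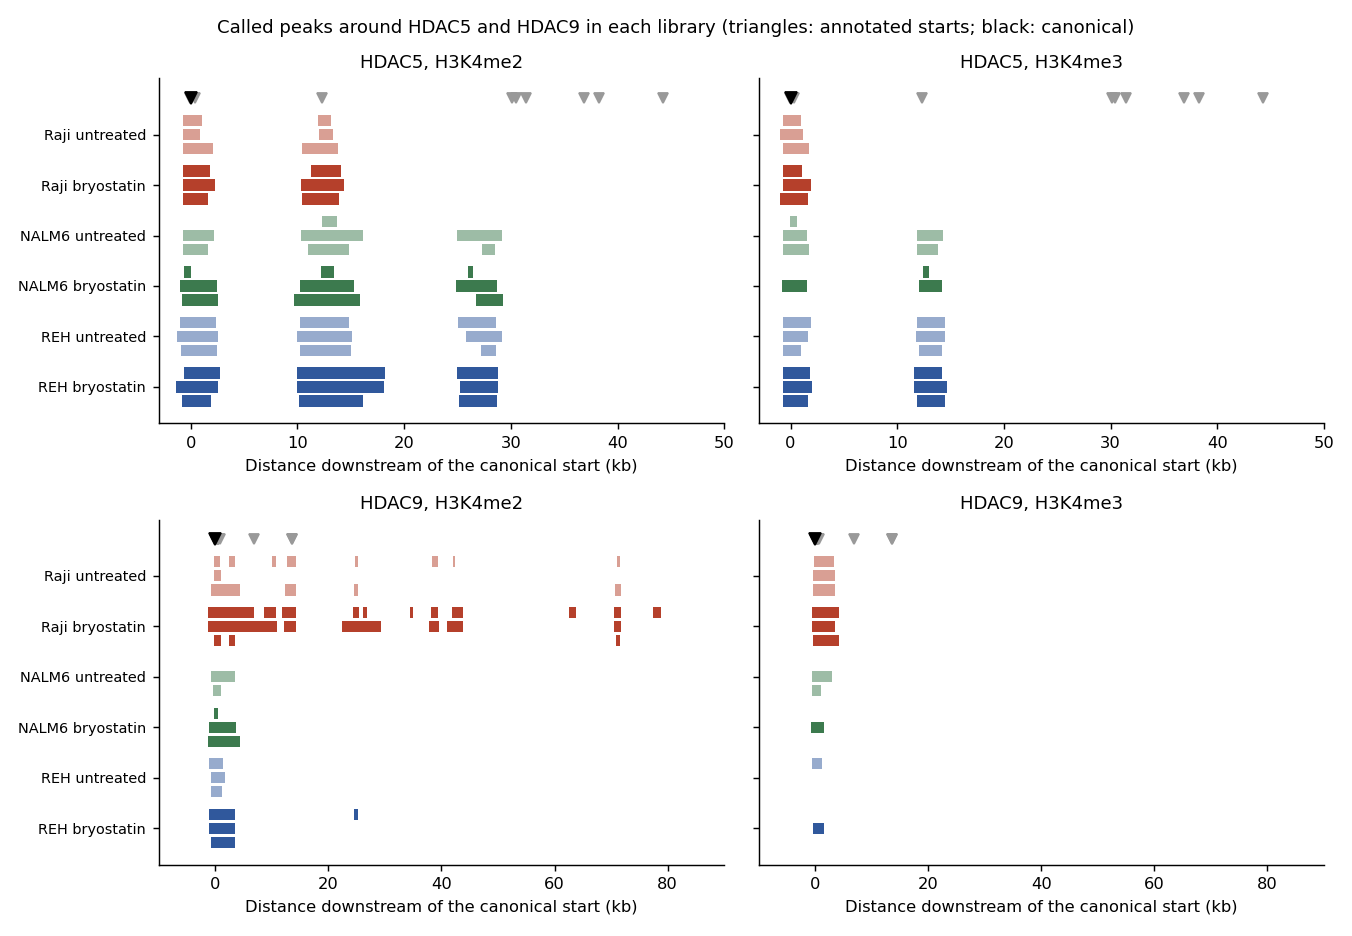
Called peaks around HDAC5 (top) and HDAC9 (bottom) for H3K4me2 (left) and H3K4me3 (right), 1 bar per peak and 1 row per library in replicate order from top, against the distance downstream of the canonical start in kb; triangles mark annotated starts, black for the canonical one. The internal HDAC5 start, 12300 bp downstream, has H3K4me3 peaks in REH and NALM6 and none in Raji, and the HDAC9 start has the widest H3K4me2 peaks in 2 treated Raji libraries.

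Between untreated Raji and REH the largest H3K4me2 differences among the members were at HDAC5, HDAC10 and HDAC1. A gene was counted if any of its start regions passed. In this comparison H3K4me2 differed at 4 of 8 genes tested, and at 5 of their 10 start regions. Over all 7999 regions 46.8% differed by limma at the adjusted p threshold of 0.05, so the members' share was close to that of all regions. For H3K4me3 it was 5 of 8 genes and 6 of 9 start regions, beside 51.3% of 6729 regions. The median log2 difference over the member regions, Raji minus REH, was -0.14 for H3K4me2 and -0.21 for H3K4me3, and over all regions 0.0025 and -0.02. Mapped reads of the untreated H3K4me2 libraries were 6.70 M to 13.9 M in Raji and 13.75 M to 18.8 M in REH. For H3K4me3 they were 20.1 M to 47.9 M and 10.2 M to 27.9 M. The part of depth in the differences between these lines was not tested.

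At the internal HDAC5 start the H3K4me2 region chr17:44108521-44113650 had a relative signal of 0.367, 0.492 and 0.571 in untreated Raji and 3.02, 3.59 and 3.55 in untreated REH. Every REH library was above every Raji library, and 56.0% of all regions separated these lines. The log2 difference, Raji minus REH, was -2.85 (SE 0.16, limma adjusted p = 1.57e-08). NALM6 was also higher than Raji there, with 1.51, 2.10 and 2.01 against 0.285, 0.381 and 0.456. Raji minus NALM6 was -2.34 on the log2 scale (SE 0.24, limma adjusted p = 0.000605, and limma adjusted p = 0.814 without centring). The main start of HDAC5 went the same way with a smaller difference, -0.77 for H3K4me2 (SE 0.16, limma adjusted p = 0.00151) and -1.06 for H3K4me3 (SE 0.19, limma adjusted p = 0.00108), Raji minus REH. The 3 untreated Raji libraries had an H3K4me3 signal of 0.228, 0.340 and 0.383 at the main start and the 3 REH libraries 0.640, 0.656 and 0.642, without overlap, as held at 60.8% of all regions.

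HDAC10 had less H3K4me2 in Raji than in REH, and against NALM6 the direction depended on the centring. Its H3K4me2 at the canonical start, chr22:50248911-50253130, was 1.29, 1.71 and 1.39 in Raji and 2.76, 3.28 and 3.64 in REH, without overlap (log2 -1.14, SE 0.14, limma adjusted p = 1.86e-05). Against NALM6 the log2 difference was -1.13 (SE 0.22, limma adjusted p = 0.00863), but without centring the log2 difference reversed to 0.041. With each library left out in turn, the limma adjusted p against NALM6 reached 0.0553. For H3K4me3 HDAC10 was also lower in Raji than in REH, by -0.84 on the log2 scale (SE 0.13, limma adjusted p = 0.000454), with 0.585, 0.656 and 0.738 against 1.03, 1.16 and 1.36. The neighbouring region from 50240711 lies at the other end of the short HDAC10 gene and holds the start of TUBGCP6, and it was lower for H3K4me3 in Raji than in REH (log2 -0.51, limma adjusted p = 0.00093) and in NALM6 than in REH (log2 -0.61, limma adjusted p = 0.0292). The NALM6 difference did not pass when any library but NALM6 replicate 1 was left out, with limma adjusted p from 0.0702 to 0.189.

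HDAC1, HDAC2 and HDAC3, the catalytic subunits of the corepressor complexes, were higher in Raji than in REH for at least 1 mark. HDAC1 had an H3K4me2 signal of 0.993, 0.829 and 1.06 in Raji and 0.491, 0.571 and 0.582 in REH, without overlap (log2 0.81, SE 0.15, limma adjusted p = 0.000643). Its H3K4me3 was 0.821, 0.772 and 0.696 against 0.550, 0.544 and 0.509 (log2 0.51, SE 0.11, limma adjusted p = 0.00302). Both marks of HDAC1 separated the 2 lines, but by the mean signal per base its H3K4me3 difference was -0.0033. HDAC2 was higher for H3K4me2 only by this test (0.989, 1.25 and 0.833 in Raji against 0.727, 0.672 and 0.744, log2 0.50, SE 0.16, limma adjusted p = 0.0203), and its H3K4me3 differed by 0.14 (limma adjusted p = 0.28). HDAC3 was higher for H3K4me3, with 1.84, 1.66 and 1.78 in Raji against 1.42, 1.48 and 1.38 in REH (log2 0.30, SE 0.08, limma adjusted p = 0.0085). It was also higher against NALM6, with 1.63, 1.49 and 1.57 against 1.22, 1.02 and 1.09 (log2 0.50, SE 0.14, limma adjusted p = 0.0489), while its H3K4me2 differed by -0.03 from REH (limma adjusted p = 0.836). The NALM6 call for HDAC3 was lost with the replicate block (limma adjusted p = 0.0979). Without centring HDAC1, HDAC2 and HDAC3 did not pass against REH for either mark. HDAC6 was lower for H3K4me3 in Raji than in REH (log2 -0.83, SE 0.17, limma adjusted p = 0.00281), with 0.315, 0.289 and 0.219 against 0.502, 0.513 and 0.432, and not without centring (limma adjusted p = 0.0828). The H3K4me2 differences between Raji and REH at the internal HDAC5 start and at HDAC10 passed in every alternative in which these regions were fitted.

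HDAC4, HDAC7 and HDAC9 did not pass the test between Raji and REH. The log2 differences for H3K4me2 were -0.13 for HDAC4, -0.14 for HDAC7 and 0.39 for HDAC9 (limma adjusted p = 0.163), and the HDAC9 libraries of the lines overlapped. In the comparisons with NALM6, 2 of 6 genes differed between Raji and NALM6 for H3K4me2 (18.9% of all regions) and 1 of 6 for H3K4me3 (20.2%). Between NALM6 and REH 0 of 6 differed for H3K4me2 by limma, with 3 genes, HDAC5, HDAC7 and HDAC10, at an unadjusted p under 0.05 (26.0% of all regions, and 11.4% passed the adjusted p), and 1 of 6 for H3K4me3 (7.15%). Without NALM6 replicate 1 these comparisons gave 6 of 9 genes for H3K4me3 between Raji and NALM6 (45.1% of all regions), 1 of 7 for H3K4me2 between NALM6 and REH (33.8%) and 5 of 8 for H3K4me3 (44.7%).

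Under bryostatin few deacetylase starts passed the test, and the largest log2 changes were at HDAC5 in REH and at HDAC9 in Raji. The main limma fits left out the pairing of replicates and used Benjamini-Hochberg adjustment over all regions. By these fits no member passed in Raji, of 8 genes tested for H3K4me2 (0% of all regions) and 9 for H3K4me3 (0.155%). None passed in NALM6, of 5 and 4 genes (0% and 0%). At an unadjusted p under 0.05 there was 1 gene, HDAC9, for each mark in Raji (6.72% and 5.65% of all regions) and 0 genes in NALM6 (1.36% and 0.182%). In REH 1 of 8 genes passed for H3K4me2, which was HDAC9 (1.45% of all regions) and is not read as a result, and 1 of 7 for H3K4me3, which was HDAC5 (1.67%). The median log2 change over the member regions lay between -0.04 and 0.12 in the 6 comparisons, and over all regions between -0.03 and -0.00086.

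**Figure D4:**
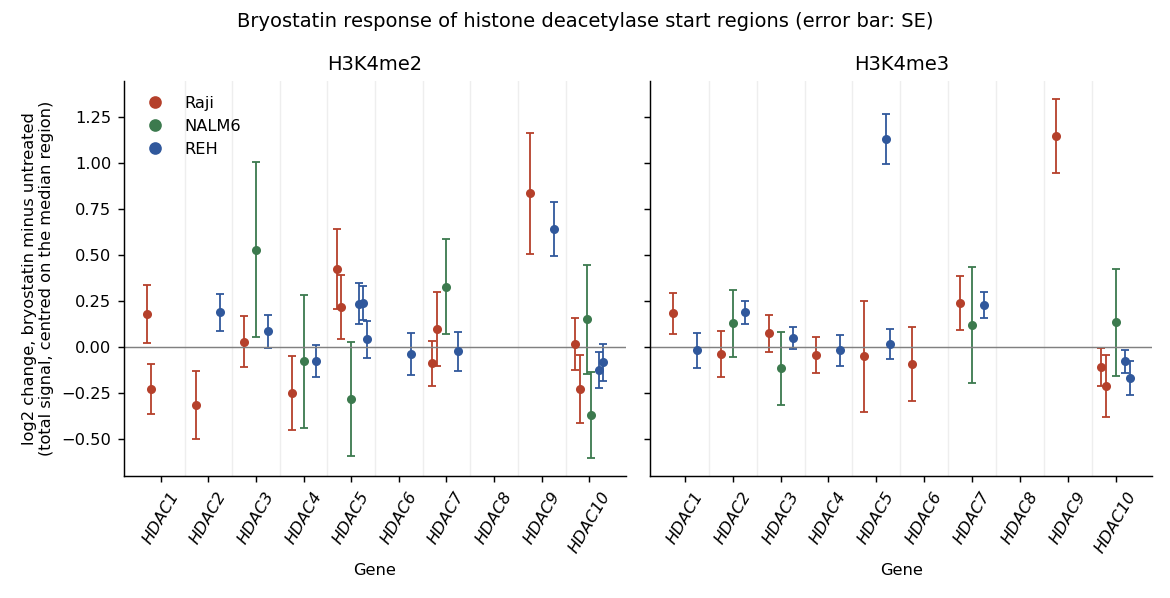
Log2 change of total signal, bryostatin minus untreated (y axis, error bar SE), of each start region called in all 6 libraries, by gene (x axis), line (colour) and mark (panel). The HDAC5 internal start in REH and the HDAC9 start in Raji stand above 1 for H3K4me3, and the other H3K4me3 changes lie between -0.21 and 0.24.

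HDAC5, a class IIa deacetylase that binds MEF2, gained H3K4me3 at its internal start in REH after bryostatin. The relative signal of the region chr17:44108941-44112060 was 0.570, 0.620 and 0.406 in the untreated libraries and 1.17, 1.24 and 1.04 in the treated ones (means 0.532 ± 0.112 and 1.15 ± 0.0992, SD, n = 3 each). The lowest treated library was above the highest untreated one, and groups did not overlap at 17.6% of all H3K4me3 regions of REH. On the log2 scale the change came to 1.13 (SE 0.14, limma adjusted p = 0.00105). It stayed between 0.95 and 1.25 when each library was left out in turn, with limma adjusted p at most 0.0261.

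The gain was one of height more than of length. The peaks covered 2670, 2760 and 2130 bp without bryostatin and 2600, 3120 and 2590 bp with it, while the maximum coverage went from 983, 1100 and 855 RPKM to 2437, 1972 and 1939 RPKM. By the mean signal per base the log2 change was 1.06, and it did not pass the test (limma adjusted p = 0.077). At the main start of HDAC5, chr17:44121601-44124340, H3K4me3 was 0.640, 0.656 and 0.643 untreated and 0.651, 0.686 and 0.622 treated, and these groups overlapped (log2 change 0.01, SE 0.08). The change was therefore seen at the internal start and not at the main one, although the difference between the 2 starts was not tested.

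H3K4me2 at the internal HDAC5 start changed less in REH. It was 3.03, 3.60 and 3.60 in the untreated libraries and 3.84, 4.12 and 4.06 in the treated ones. The groups did not overlap, as held at 14.7% of all regions. The log2 change of 0.24 did not pass the test (limma adjusted p = 0.36). In NALM6 H3K4me3 was called there at 0.152 and 0.179 in 2 untreated libraries and at 0.139 and 0.169 in 2 treated ones. The NALM6 values overlap and, with a peak missing from 1 library of each group, were not tested. In Raji the internal start had no H3K4me3 peak, and its H3K4me2 was 0.382, 0.520 and 0.585 untreated and 0.532, 0.694 and 0.755 treated (log2 0.42, limma adjusted p = 0.722).

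HDAC9 had an H3K4me3 change of similar size in Raji. At its main start, chr7:18495151-18500030, the relative signal was 0.369, 0.547 and 0.356 in the untreated libraries and 1.13, 0.927 and 0.742 in the treated ones (means 0.424 ± 0.107 and 0.933 ± 0.193, SD, n = 3 each). The groups did not overlap, as held for 12.4% of all regions. The log2 change was 1.14 (SE 0.20), and it did not pass over all regions (limma adjusted p = 0.0926). The replicate numbers pair the Raji H3K4me3 libraries, and a fit with this replicate block gave a limma adjusted p of 0.00428. It was 0.0305 without centring, 0.0322 without untreated replicate 2 and 0.991 for the mean signal per base, so the call depended on the setting while the direction was the same in each of these. The called length was 3700, 4020 and 3920 bp untreated and 4780, 4210 and 4580 bp treated.

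H3K4me2 at the HDAC9 start in Raji was less even. It was 0.922, 0.574 and 1.03 in the untreated libraries and 1.93, 2.02 and 0.792 in the treated ones, and treated replicate 3 fell within the untreated range. The called length was 2710, 1310 and 5120 bp untreated and 10110, 12090 and 2380 bp treated, so the same treated library had the short peak. The log2 change was 0.83 (SE 0.33, limma adjusted p = 0.718), and -0.075 by the maximum signal. Every treated H3K4me2 library of Raji was deeper, with 15.6 M to 18.8 M mapped reads, than every untreated one, with 6.70 M to 13.9 M, so depth and bryostatin cannot be told apart there. H3K4me2 peaks further along the gene were called in the 3 treated libraries and in untreated replicates 1 and 3, and the region chr7:18518161-18525090 was called in 2 untreated and 2 treated libraries with a mean relative signal of 0.277 and 0.689.

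In REH the HDAC9 start had more H3K4me2 signal and length in the treated libraries. The relative signal of chr7:18494591-18499320 was 0.720, 0.496 and 0.512 in the untreated libraries and 0.794, 0.862 and 1.01 in the treated ones, and the length called was 2480, 2430 and 1900 bp against 4660, 4660 and 4360 bp. Both measures separated the groups, as the signal did at 14.7% of all regions. Mapped reads were 13.75 M to 18.8 M in the untreated and 18.2 M to 22.85 M in the treated libraries, and the part of depth was not tested. The log2 change of the total signal was 0.64 (SE 0.15), that of the maximum signal 0.47 and that of the mean signal per base -0.27. H3K4me3 was called in 1 untreated REH library at 0.0665 and in 1 treated one at 0.197, and the other 4 libraries had no peak. In NALM6 H3K4me2 over the HDAC9 gene was 0, 0.494 and 0.307 untreated and 0.544, 0.598 and 0.682 treated, where 0 means no peak called. The treated NALM6 libraries were all higher than the untreated group (p = 0.1 by the exact two-sided permutation test, and 3 against 3 cannot give less). Groups did not overlap at 6.93% of all genes with signal there. The untreated library at 0 is replicate 1, which has the other scaling, and depth is unknown for replicate 1 of both groups. Replicates 2 and 3 had 23.04 M and 8.244 M mapped reads untreated, and 21.17 M and 23.42 M treated. The part of depth and scaling in this NALM6 difference was not tested.

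**Figure D5:**
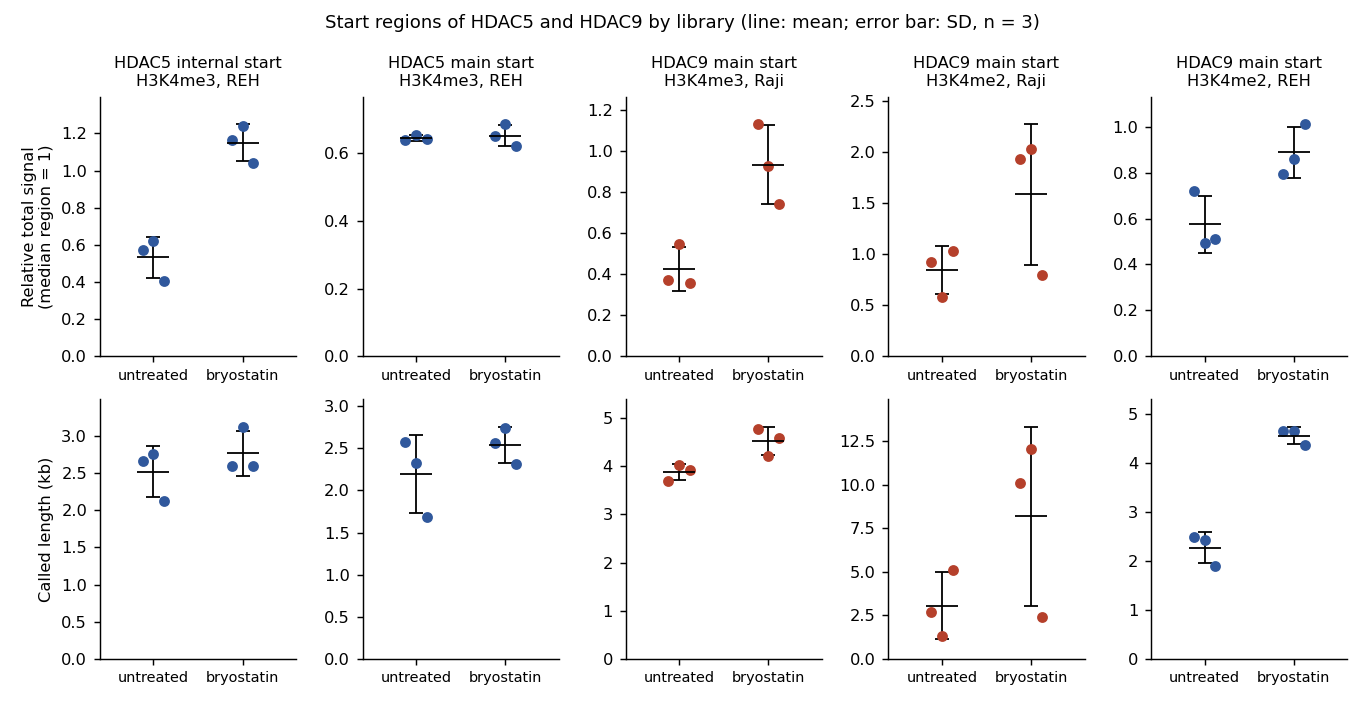
Relative total signal (top row) and called length in kb (bottom row) of start regions of HDAC5 and HDAC9 in untreated and bryostatin-treated libraries, 1 point per library with the mean and SD (n = 3). The internal HDAC5 start and the HDAC9 H3K4me3 region separate the groups in signal, the main HDAC5 start does not, and treated Raji replicate 3 lies within the untreated range for HDAC9 H3K4me2.

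The difference in response between Raji and REH was tested with an interaction term over 12 libraries. By limma 0 of 8 genes passed for H3K4me2 (0.0275% of all regions) and 0 of 7 for H3K4me3 (0.0776%), with 2 genes, HDAC2 and HDAC1 (in a region shared with MARCKSL1), at an unadjusted p under 0.05 for H3K4me2 (6.59%) and 0 for H3K4me3 (4.45%). For HDAC9 H3K4me2, whose REH values stand in the study's list, the responses differed by 0.18 on the log2 scale, given as a description without a test. The internal HDAC5 start and HDAC9 H3K4me3 were not called in all 12 libraries and could not be fitted.

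Among the class I genes no change under bryostatin passed the test. HDAC3 H3K4me2 in NALM6 was 0.416, 1.33 and 1.51 untreated and 1.22, 1.39 and 1.47 treated (log2 0.53, SE 0.47, limma adjusted p = 0.999). The groups overlapped, and the lowest value was that of untreated replicate 1, which carries the other scaling. HDAC2 H3K4me2 in Raji was 1.03, 1.32 and 0.854 untreated and 0.759, 0.829 and 0.956 treated, and the groups overlapped (log2 -0.32, SE 0.19, limma adjusted p = 0.729). HDAC2 H3K4me3 in REH was 1.40, 1.43 and 1.47 untreated and 1.54, 1.63 and 1.73 treated, without overlap, and differed by 0.19 on the log2 scale (SE 0.06, limma adjusted p = 0.234). HDAC1 and HDAC3 in REH had log2 changes of -0.02 and 0.05 for H3K4me3, within their standard errors of 0.09 and 0.06. In class IIa, HDAC7 H3K4me3 in REH was 2.76, 2.99 and 2.99 untreated and 3.23, 3.32 and 3.67 treated, also without overlap (log2 0.23, SE 0.07, limma adjusted p = 0.195). Groups that do not overlap occurred in 17.6% of all H3K4me3 regions of REH. HDAC4 moved by -0.02 for H3K4me3 in REH and by -0.05 in Raji, and HDAC6 by -0.10 in Raji, all within 1 SE. HDAC10 at its canonical start moved by -0.17 in REH and -0.21 in Raji for H3K4me3, and neither passed the test.

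Over whole gene bodies, H3K4me2 groups did not overlap for HDAC9 in NALM6 (6.93% of all genes with signal) and for HDAC2 and HDAC5 in REH (10.1%), all higher after bryostatin, and for 0 genes in Raji (9.57%). For H3K27me3 this held for 0 members in Raji (0.357%), NALM6 (0.572%) or REH (6.12%). For H3K4me3 HDAC1, HDAC3 and HDAC9 were higher in Raji with ratios of treated to untreated means of 1.13, 1.09 and 2.20 (11.4%), and HDAC2, HDAC3 and HDAC5 in REH with 1.14, 1.21 and 1.53 (12.6%). HDAC1 was lower in NALM6 with 0.545 (3.37%), where treated replicate 3 had no peak. Each of these has p = 0.1 by the same exact permutation test. For HDAC3 in REH the gene's own start region moved by 0.05 on the log2 scale, and the flank that the body window adds holds the start of DIAPH1.

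Partners of the deacetylases were read from lists of 8 other deacetylases (HDAC11 and the sirtuins), 27 corepressor subunits, 12 class IIa partners (such as the MEF2 and YWHA genes) and 10 acetyltransferases. Where 49.4% (Raji), 23.2% (NALM6) and 41.1% (REH) of all genes had H3K4me3 at a start in all 6 libraries, it stood there for 6, 26, 12 and 10 of them (Raji), for 5, 18, 9 and 5 (NALM6) and for 5, 26, 12 and 7 (REH). Under bryostatin 2 genes of these lists passed the test, both corepressor subunits in REH, where 26 subunits were tested for each mark and 1.45% (H3K4me2) and 1.67% (H3K4me3) of all regions passed. GATAD2A, a NuRD subunit, rose for H3K4me2 at chr19:19457051-19463430 (log2 0.60, SE 0.11, limma adjusted p = 0.0103), its only region to pass. In the comparison of untreated Raji and REH this gene had further start regions from 19384161 and 19404371. RCOR2, a CoREST subunit, fell for H3K4me3 (log2 -0.57, SE 0.09, limma adjusted p = 0.00756). No class IIa partner passed in any line.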

How the data were processed

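Cut&Tag libraries of 3 lines, 2 treatments and 3 marks were used, 54 in all, and IgG libraries were not used here. Per the submitters' notes and the methods, reads were trimmed with Trim Galore and aligned to hg38 with Bowtie2, and peaks were called with SEACR per library. The deposited values are total and maximum signal per peak, which the authors computed from RPKM coverage before any comparison. Longer called peaks therefore carry more signal, and a shallow library can lose weak peaks.

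The members and lists were chosen with earlier results of these data known. Peaks of chromosomes 1 to 22, X and Y were merged at 1 bp overlap over the 6 libraries of a comparison. The log2 summed signal was centred on the median of regions called in all 6 libraries and tested with limma 3.58.1 (eBayes, trend; R 4.3.3), adjusting by Benjamini-Hochberg over all such regions at 0.05. Centring shifted the log2 difference by 0.24 and 0.26 in Raji (H3K4me2 and H3K4me3), by -0.25 and -0.18 between Raji and REH, by 1.18 and 1.17 between Raji and NALM6 and by -1.47 and -1.35 between NALM6 and REH. Sums over gene bodies were tested by exact two-sided permutation. Regions were handled with GenomicRanges 1.54.1 and figures drawn with matplotlib 3.10.9. The limma step was tested on simulated data. Replicate numbers come from the titles. Libraries of the same number deviated from their group means together (each correlation over 0.1) in Raji H3K4me3 and in both marks of NALM6 and REH. They did not all do so in Raji H3K4me2 (-0.31 to 0.42) or between lines. In NALM6, replicates 2 and 3 also deviated together across numbers (0.41 and 0.35 for H3K4me2, 0.51 and 0.57 for H3K4me3). The numbers therefore do not set pairs apart in NALM6. The main fits used no pairs, and the replicate block was fitted as an alternative. All 10 genes are accounted for, and library values of at least 1 start region are given for each gene past adjusted p 0.05, for presence in all libraries of a line against none, and for HDAC9.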

Additional observations from a re-analysis of the deposited data

Results flagged for a closer look

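HDAC1 gene body H3K4me3 moved in opposite directions in 2 lines, and the difference was not tested. In Raji every treated library was above every untreated one, with a ratio of treated to untreated means of 1.13, and in NALM6 every treated library was below, with 0.545. The NALM6 values were 1.01, 1.01 and 0.869 untreated and 0.731, 0.844 and 0 treated. The treated library at 0 had 5.41 M mapped reads and 4389 peaks, the fewest of the H3K4me3 libraries, and replicate 1 has another scaling. The gene body window of HDAC1 also takes in the start of MARCKSL1. The part of these in the result was not tested.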

How the results depend on the processing

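The number of member genes past the adjusted p changed as follows. For H3K4me3 in Raji, 0 became 1 without centring and 1 with the replicate block, and leave-one-out gave 0 to 1. For H3K4me2 in REH, 1 became 0 with the maximum or mean signal, no centring, no trend or the upper 0.5 of peaks by signal, and leave-one-out gave 0 to 1. For H3K4me3 in REH, 1 became 0 with the mean signal and with the upper 0.5. Between Raji and REH the 4 genes for H3K4me2 became 2 with the mean signal, 2 without centring and 1 with the upper 0.5 (leave-one-out 3 to 5), and the 5 for H3K4me3 became 2 with the maximum, 1 with the mean, 2 without centring and 2 with the upper 0.5 (5 to 6). Between Raji and NALM6 the 2 for H3K4me2 became 1 with the maximum, mean or upper 0.5 and 0 without centring (1 to 2), and the 1 for H3K4me3 became 0 with the mean, no centring or the replicate block and 4 with regions called in at least 3 of 6 libraries (0 to 6). Between NALM6 and REH leave-one-out gave 0 to 1 for H3K4me2, and the 1 for H3K4me3 became 0 with the mean, no centring or the block and 2 with at least 3 of 6 (0 to 5). The replicate block changed no other call between treatments. With 1 library left out, the number of all regions past the adjusted p also moved. Under bryostatin it was 0 to 16 for H3K4me3 in Raji and 62 to 346 (H3K4me2) and 51 to 223 (H3K4me3) in REH. Between Raji and NALM6 it was 339 to 2197 and 553 to 3861, in the same order. Between NALM6 and REH it was 199 to 2730 and 77 to 3147, and between Raji and REH 2882 to 4324 and 2903 to 3849. The member counts of the alternatives are not read as a result about the members. Gene bodies without overlap numbered 3 for H3K4me2 (leave-one-out 5 to 9), 7 for H3K4me3 (4 without the flank, 3 by the maximum, 7 to 11) and 0 for H3K27me3 (0 to 3). Groups of 2 against 3 libraries separate more readily than 3 against 3. Shares over all genes were not computed for the gene body alternatives, so their leave-one-out counts are not read as more changed members. The share with H3K27me3, 10.0%, became 0.556% with equal numbers of peaks and 5.88% without Raji untreated replicate 2.

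Direction reversed for HDAC9 H3K4me2 in Raji by the maximum (-0.075) and in REH by the mean (-0.27). Between Raji and REH it reversed for HDAC9 H3K4me2 by the mean (-0.11) and without Raji replicate 3 (leave-one-out -0.034 to 0.66), and for HDAC1 H3K4me3 by the mean (-0.0033). It reversed for HDAC10 H3K4me2 between Raji and NALM6 without centring (0.041). The HDAC9 H3K4me2 interaction reversed by the maximum (-0.56) and without Raji untreated replicate 2 or bryostatin replicate 1 or 2 (leave-one-out -0.085 to 0.63). Over single regions, 235 of 302 alternatives kept direction and side of the threshold. The causes were not tested. Depth is unknown for NALM6 replicate 1, and its part in the missing HDAC8 and HDAC9 peaks was not tested.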

Other observations

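Over the 18 H3K4me3 libraries HDAC9 had a start peak in 11. The protein-coding genes whose log2 start signal was most like it, of 11985 compared, were ENSG00000285171 and IL2RG (Pearson r = 0.96 each), MAML2, HLA-DRA and HLA-DRB1 (also 0.96 each). The points share libraries, depth and lines, so this is a description of these libraries with no test.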
